A study of Mus musculus with 6 samples.

Results

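The genes described here are the ligands and receptors that steer growing axons and migrating cells: semaphorins with their plexin and neuropilin receptors, ephrins with Eph receptors, Slits with Robo receptors, and netrins with Dcc and Unc5 receptors. They were chosen by gene symbol alone, with Sema3d left out of class 3, and 67 of the 55416 genes in the files matched. By their labels, the cells were oligodendrocyte precursors, the dividing progenitors of myelin-forming cells, from mouse cortex at postnatal day 11. Their transcripts were counted by RNA-seq. The 3 control samples were Pdgfra-Cre:Ift88 fl/wt; RosaEYFP and the 3 cKO samples Pdgfra-Cre:Ift88 fl/fl; RosaEYFP, so Cre, reporter and a floxed allele were shared by both groups and the remaining Ift88 copy set them apart. Ift88 is needed to build the primary cilium, and the comparison asks which transcripts depend on it. Cre was driven by Pdgfra, and each sample was a pool of 4 to 6 animals, so the tests rest on the spread among pools.

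Guidance systems work through contact or secreted cues. Class 3 semaphorins are secreted and act mostly through neuropilins paired with plexins, while classes 4 to 7 are membrane bound and mostly bind plexins directly. Ephrins are anchored to the cell surface and signal in both directions, A ephrins being held by a lipid anchor and B ephrins crossing the membrane. Slits repel cells that carry Robo receptors, and netrins attract or repel according to whether Dcc or Unc5 receptors are present. Oligodendrocyte precursors use such cues when they migrate and when they contact axons.

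Total counts ran from 11773548 to 13909236 in 5 libraries and were 568509 in cKO replicate 2. Levels are given as CPM, counts scaled to the library total. Only a tag from the transcript's 3' end was sequenced, so a longer transcript does not get a higher CPM. A count of 0 allowed 0.216 to 0.255 CPM at the depth of those 5 and 5.28 CPM in the shallow cKO replicate 2, counting error only. Ift88 counts were 143, 32 and 167 for control pools and 1, 0 and 305 for cKO pools. Because the position of the tag relative to the deleted part is unknown, these counts do not check the genotype. Of 25 precursor markers, 7 were at 0 in all libraries, among them the lineage factor Sox10, and Pdgfra itself had at most 155 counts.

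Guidance genes were widely detected in the deeper libraries and almost absent from cKO replicate 2. Genes of all kinds were fewer in that library, with 3651 having a count, against 14047 to 16252 in the other libraries. Of the 67 guidance genes, 57 were at 0 there, against 9 to 16 in the other libraries. At least 20 counts were found for 54, 45 and 52 of the 67 genes in control replicates 1 to 3, for 52 and 55 in cKO replicates 1 and 3, and for 2 in cKO replicate 2. All 67 together made up 3143, 2051 and 2389 CPM in control pools, compared with 4055, 310 and 4441 CPM in cKO pools. At the depth of cKO replicate 2, the levels of the other libraries correspond to 1166 to 2525 guidance counts, against 176 observed. Of these 176, Plxnb2 gave 123 and Robo1 gave 42. The level of 20 counts was reached by 37 of the 67 genes throughout the 5 deeper libraries and by 62 in 1 library or more. Efna2 and Plxnb3 never passed 17 counts, and Ntn3, Robo4 and Sema3g were at 0 in all 6 libraries.

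**Figure D1:**
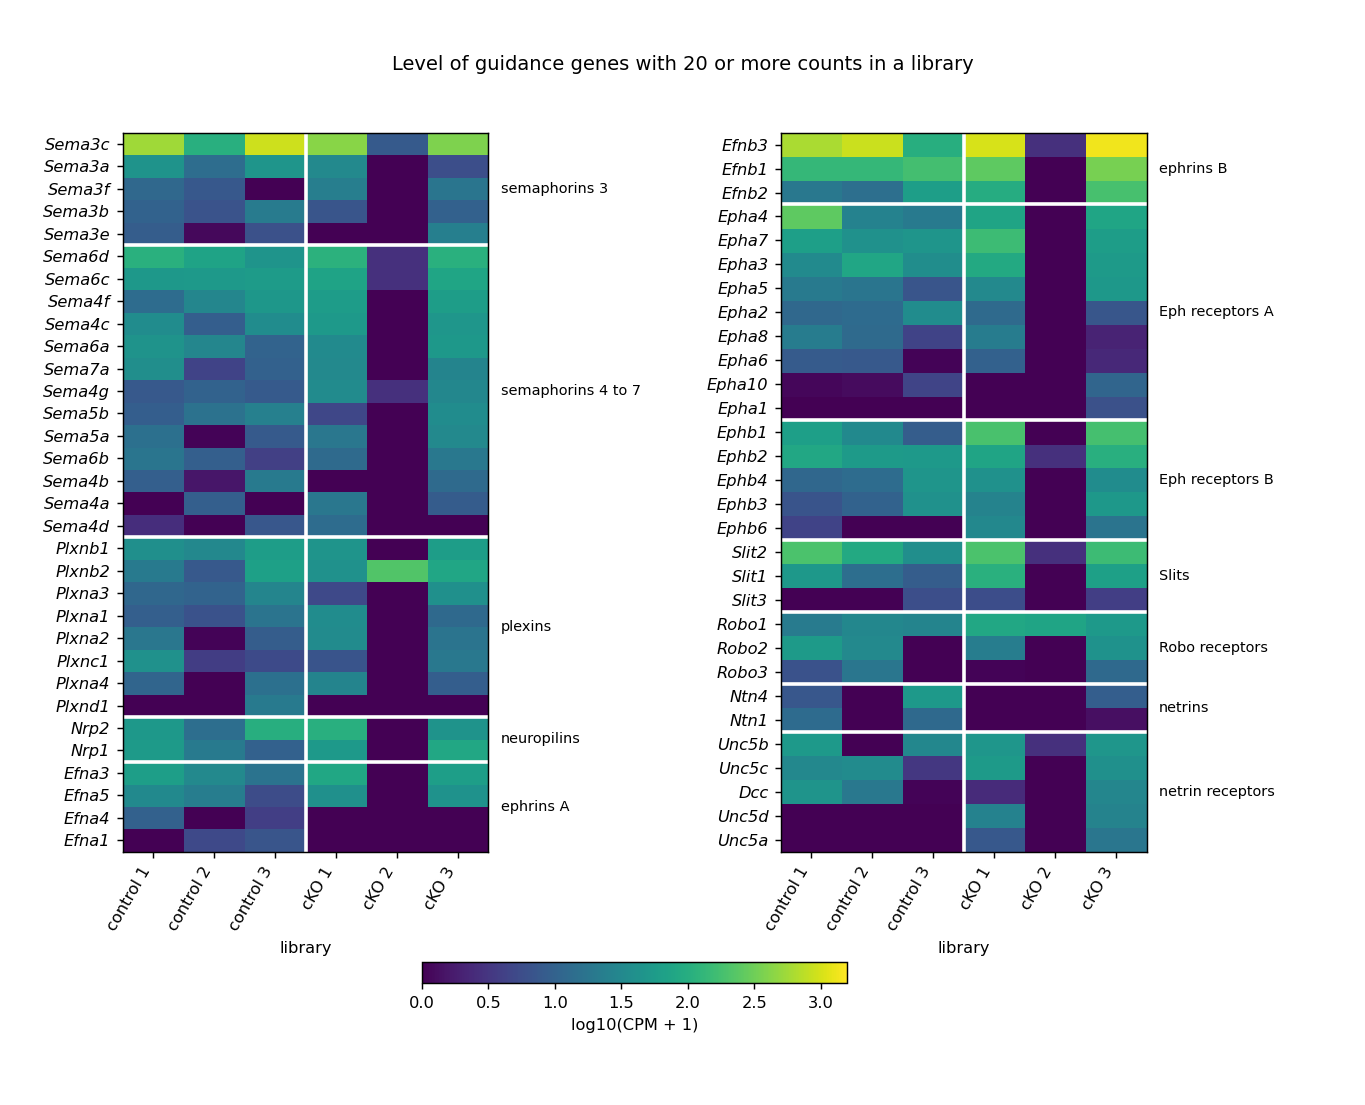
Levels of the 62 guidance genes with at least 20 counts in a library, as log10(CPM + 1) by color, with genes in rows grouped by family and libraries in columns. Efnb3 and Sema3c are the brightest rows, and cKO replicate 2 is dark apart from Plxnb2 and Robo1.

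Efnb3 and Sema3c dominated the set. These genes together held 37.5%, 47.5% and 41.7% of all guidance counts in the controls and 35.3% and 39.5% in cKO replicates 1 and 3. Their balance varied: Efnb3 alone made up 20.03%, 42.4% and 4.19% in the controls, against 24.7% and 30.9% in the deeper cKO libraries. Control replicate 3 stood apart from the other controls, with little Efnb3 and the most Sema3c. It also had the lowest summed level of 24 neuron markers among the controls, 2521 CPM against 8314 and 6889 CPM in control replicates 1 and 2. Its sums were the highest of the controls for pericyte and fibroblast markers, 5418 against 1863 and 4352 CPM. The same held for myelin markers, 594 against 189 and 106 CPM.

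No guidance gene passed the test between the groups. With all 6 libraries, 54 of the 67 genes passed the count filter and were tested. Of these, 0 were called higher or lower (edgeR's quasi-likelihood test, Benjamini-Hochberg adjusted p under 0.05, lowest adjusted p of a guidance gene 0.9999). Of all 12833 tested genes, 0.00779% were called in each direction. At an unadjusted p under 0.05 there were also 0, against 1.30% of all genes higher and 1.53% lower, and DESeq2 called 0, where it called 0.0545% of all genes higher and 0.405% lower. At an unadjusted p under 0.05 DESeq2 had 2 of the 54, Plxnb2 and Robo1, both higher, against 3.98% of all genes higher and 2.33% lower. The median fitted log2 fold change (cKO over control) was 0.32 for the 54 genes and -0.44 for all genes tested. Robo1 was the 1 gene whose 3 cKO values all lay above its 3 control values, which held for 1.33% of all tested genes. None had all cKO values below the controls, against 11.1% of all tested genes.

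Without cKO replicate 2, many more guidance genes were separated between the groups, although none passed. Then 60 were tested, and 18 had both cKO values above all 3 control values while 0 had both below, against 13.0% and 12.6% of 14562 tested genes. Unc5a and Unc5d entered this test through the cKO libraries alone and Efna1 and Efna4 through the controls alone; of the 56 with counts in both groups, 16 were higher in this sense and 0 lower. The 18 were Efna5, Efnb1, Efnb2, Efnb3, Epha5, Ephb1, Ephb6, Robo1, Sema3f, Sema4c, Sema4f, Sema4g, Sema5a, Sema6c, Slit1, Unc5a, Unc5c and Unc5d. The median log2 fold change was 0.89 against -0.06 for all genes, and 46 of 60 were above 0, against 47.9% of all genes. It was -0.26 without cKO replicate 1 and -0.07 without cKO replicate 3, the fits that keep replicate 2, where all genes had -0.82 and -0.90. Of the 60 genes, 6 (Unc5d, Efnb1, Efnb2, Ephb1, Unc5a and Robo1) had an unadjusted p under 0.05, each higher in cKO, against 3.06% of all genes, and 0 were lower, against 3.03% (edgeR's quasi-likelihood test). Of the 56 with counts in both groups, 4 were higher at that p and 0 lower. None had an adjusted p under 0.767, and by adjusted p edgeR called 0.00% of all genes higher and 0.00687% lower. DESeq2 on the same 5 libraries called Unc5a and Unc5d, the genes that entered through cKO alone, higher, where it called 0.824% of all genes higher and 1.22% lower.

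**Figure D2:**
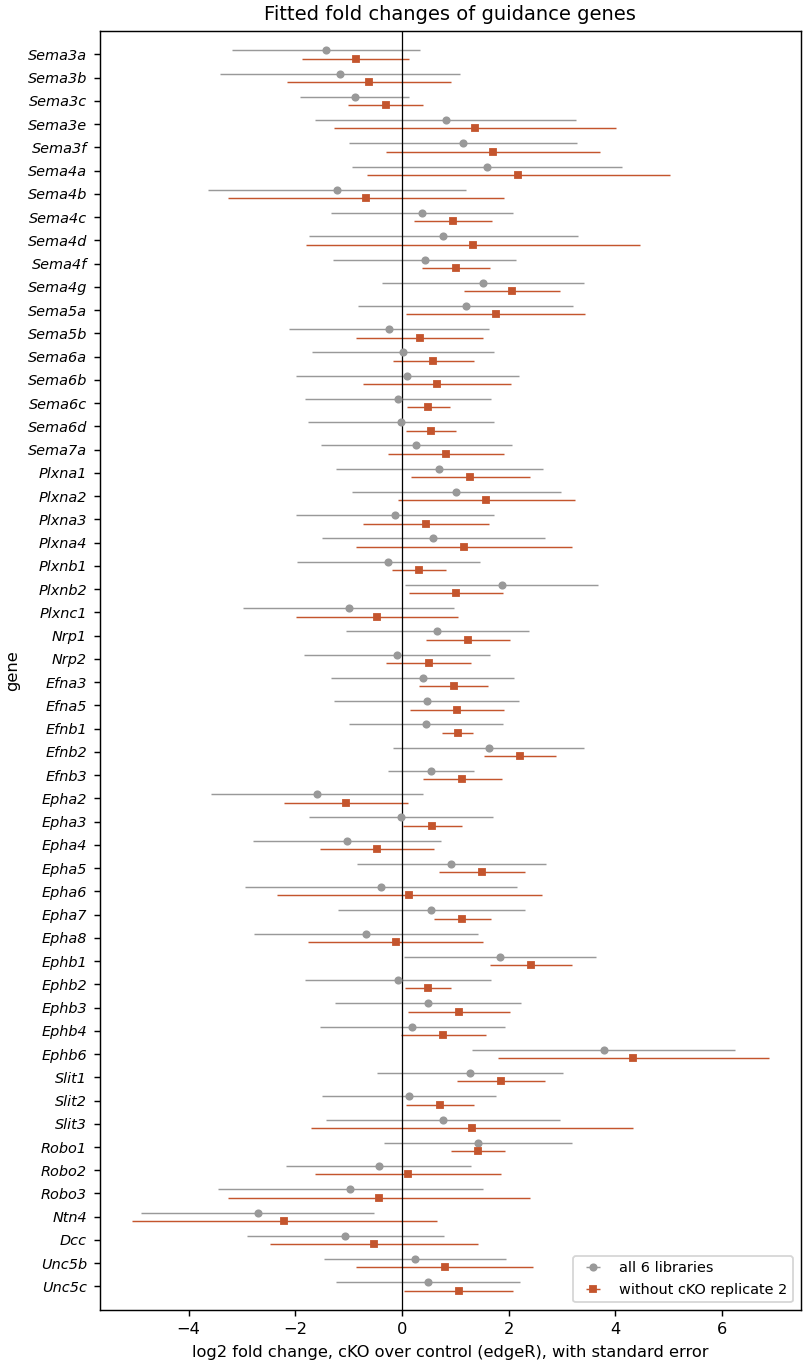
Fitted log2 fold changes (cKO over control, edgeR) with standard errors for the 54 guidance genes tested in both fits, genes in rows by family, gray circles for all 6 libraries and orange squares without cKO replicate 2. Without that library 43 of the 54 lie above 0, against 33 with it, and the standard error of Efnb1 is 0.29, against 1.44 with it.

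The same 2 cKO libraries also differed from the controls in markers of other cells. Neuron markers summed to 9199 and 9463 CPM in cKO replicates 1 and 3, above all controls (2521 to 8314 CPM), with 14 and 18 of 24 markers at 20 counts or more against 18 to 19. The list was not uniform: Dcx had 197.6, 147.5 and 40.4 CPM in control against 685.8 and 620.9 CPM, whereas the inhibitory neuron gene Gad1 had 72.7, 70.6 and 4.5 CPM in control and 0 in every cKO library. Many guidance genes are also used by neurons, and the part of the neuron markers in the differences was not tested. Precursor markers summed to 451 and 411 CPM against 324 to 626 CPM, and astrocyte markers to 1528 and 1374 CPM against 1166 to 1746 CPM. Fewer astrocyte markers reached 20 counts in these cKO libraries, 9 and 9 of 15 against 13 to 14. This list was not uniform either. Gfap had 44.5 and 19.5 CPM against 133.7 to 281 CPM, whereas Apoe had 216.8 and 134.6 CPM against 40.3 to 78.9 CPM. Slc1a3 was also higher, with 454 and 294 CPM against 66.3 to 248 CPM. Ependymal and choroid plexus markers summed to 473 and 717 CPM against 23.4 to 252 CPM, and to 46764 CPM in cKO replicate 2. The choroid plexus gene Ttr carried this, with 375.6, 45945 and 573.8 CPM in cKO against 0.147 to 25.1 CPM, and without it the sums overlapped (97.9 and 142.8 against 23.3 to 227 CPM). Microglia markers were at 0 in all libraries for 10 of 14 genes and endothelial markers for 4 of 12, and these lists summed to at most 77.9 and 116 CPM in the deeper libraries. Pericyte and fibroblast markers summed to 6563 and 3957 CPM against 1863 to 5418 CPM, and myelin markers to 223 and 214 CPM against 106 to 594 CPM. In such bulk samples, fewer cells of a type and less RNA per cell cannot be told apart.

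**Figure D3:**
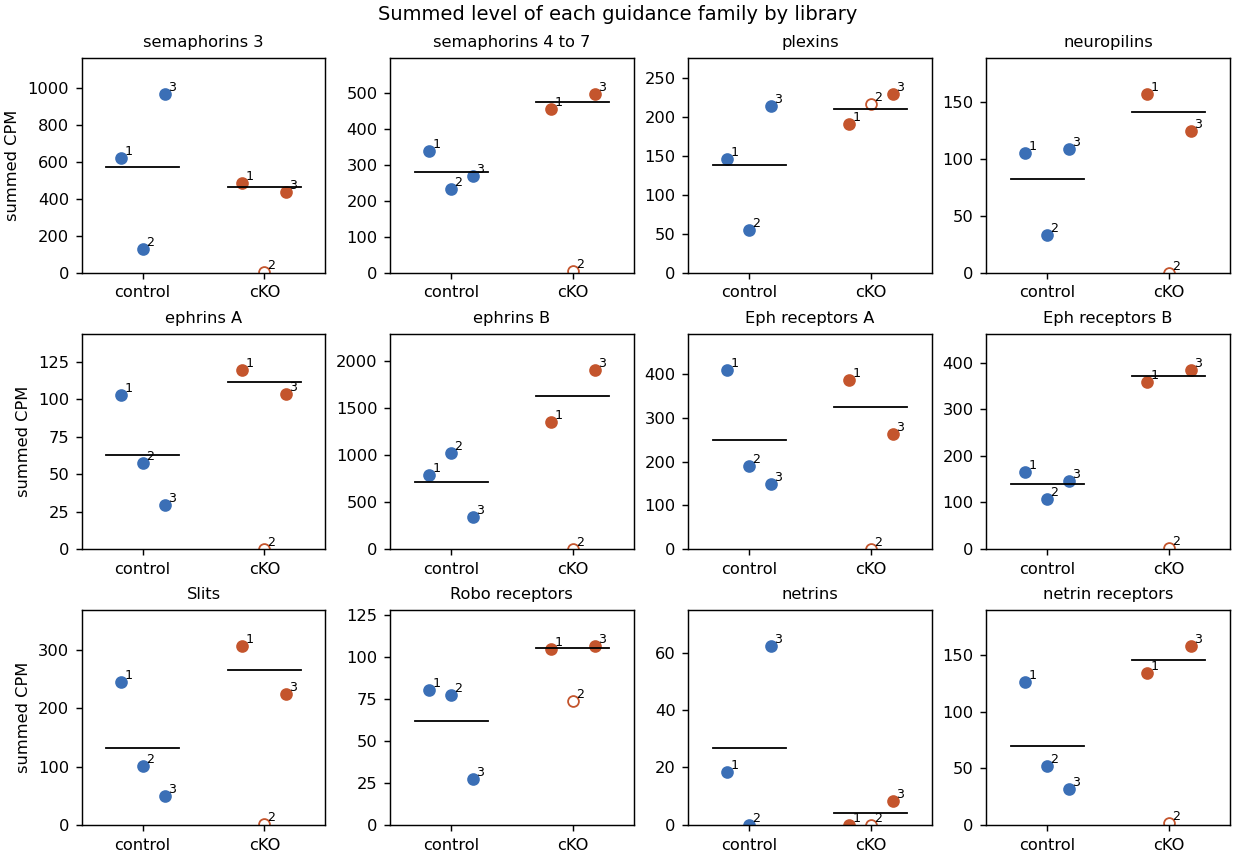
Summed CPM of each of the 12 guidance families by library, points numbered by replicate, controls blue and cKO orange with replicate 2 open; lines mark the mean of the controls and of cKO replicates 1 and 3. In 7 families both of these cKO libraries lie above all controls and in 0 families below, and with cKO replicate 2 the groups overlap in all 12. For single genes, without cKO replicate 2, 13.0% of all tested genes were above and 12.6% below. No such share was taken for summed sets of genes.

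Ephrins of the B class had the highest sum of the 12 families in control replicates 1 and 2 and cKO replicates 1 and 3. Their sum was 784, 1017 and 335 CPM in control pools, compared with 1354, 1.76 and 1903 CPM in cKO pools, and they made up 88.4% to 94.8% of all ephrin counts in each deeper library. Efnb3, a transmembrane ephrin (ENSMUSG00000003934, chromosome 11, 69444918 to 69451031, GRCm39 like all gene positions here), had 630, 870 and 100 CPM in control pools, compared with 1003, 1.76 and 1371 CPM in cKO pools. Its highest control came close to cKO replicate 1, and its log2 fold change without cKO replicate 2 was 1.13 (SE 0.74, edgeR adjusted p = 0.891). Efnb1 (ENSMUSG00000031217, chromosome X, 98179736 to 98192597) was steadier among the controls, at 136, 133 and 173 CPM, with 255, 0 and 346 CPM in the cKO libraries. That is 147 ± 22.2 against 200 ± 179 CPM (SD, n = 3), where the large cKO spread comes from the 0 in replicate 2, a library in which its mean level elsewhere corresponds to 119 counts. The log2 fold change of Efnb1 was 0.45 (SE 1.44, edgeR adjusted p = 0.9999) with all libraries, 1.04 (SE 0.29, edgeR adjusted p = 0.767) without cKO replicate 2 and -0.14 without cKO replicate 3. Efnb2, the ephrin best known from vessel and nerve patterning (ENSMUSG00000001300, chromosome 8, 8667434 to 8711242), had 18.2, 13.6 and 61.5 CPM in control pools, compared with 95.0, 0 and 187 CPM in cKO pools. Its log2 fold change was 1.62 (SE 1.79, edgeR adjusted p = 0.9999) and, without cKO replicate 2, 2.22 (SE 0.68, edgeR adjusted p = 0.767). In control replicate 3 the mix of B ephrins differed: Efnb3 made up 29.9% there, against 80.3% and 85.6% in the other controls and 74.1% and 72.0% in the deeper cKO libraries.

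Because the series title names CREB and Hedgehog signaling, guidance promoters were searched for the CREB response element and a GLI site, on both strands. The search covered the 250 bases before the start site. RefSeq promoters (GRCm38.p6) were at hand for 57 of the 67 genes. Dcc, Efnb3, Ntn1, Plxna1, Plxna4, Sema3b, Sema3f, Sema6a, Slit1 and Unc5d had none at hand and were not searched. The full element, TGACGTCA, stood before Epha2 alone, against 1.55% of all 32851 promoters. The shorter TGACG, which the full element includes, stood in 6 of 73 guidance promoters (Efnb1, Efnb2, Epha2, Epha4, Ephb3 and Unc5c), or 8.22%, against 17.8% of all promoters. The GLI letters GACCACCCA were found in 0 guidance promoters, against 0.225% of all. These matches describe letters only. The 3 sequences below belong to the B ephrins that could be searched, Efnb1 and Efnb2, and to the receptor gene with the full element. Capitals mark the element or its shorter form on either strand. The Efnb1 sequence is chrX:99135811-99136060 (plus strand), Efnb2 is chr8:8661243-8661492 (minus strand) and Epha2 is chr4:141300971-141301220 (plus strand), all GRCm38.p6, and they were chosen after the counts were seen.
Efnb1: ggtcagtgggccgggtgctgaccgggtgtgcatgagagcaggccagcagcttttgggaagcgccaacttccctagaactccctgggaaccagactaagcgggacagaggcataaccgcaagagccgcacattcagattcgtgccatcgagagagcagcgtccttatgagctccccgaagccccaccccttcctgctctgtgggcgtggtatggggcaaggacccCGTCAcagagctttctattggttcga
Efnb2: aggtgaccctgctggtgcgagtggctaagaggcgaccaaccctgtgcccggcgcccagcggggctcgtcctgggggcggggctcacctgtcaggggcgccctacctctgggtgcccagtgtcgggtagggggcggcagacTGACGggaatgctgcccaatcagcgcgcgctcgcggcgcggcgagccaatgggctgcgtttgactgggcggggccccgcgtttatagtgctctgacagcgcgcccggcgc
Epha2: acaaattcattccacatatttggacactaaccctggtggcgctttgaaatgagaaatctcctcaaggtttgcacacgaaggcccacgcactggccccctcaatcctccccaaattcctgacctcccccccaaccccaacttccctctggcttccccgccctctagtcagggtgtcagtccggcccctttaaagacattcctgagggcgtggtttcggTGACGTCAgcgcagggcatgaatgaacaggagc
The capitals begin 26 bases before the start site in Efnb1, 110 in Efnb2 and 33 in Epha2.

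Receptors for B ephrins were higher as a family in the deeper cKO libraries. EphB sums were 165, 108 and 145 CPM in control pools, compared with 359, 1.76 and 385 CPM in cKO pools, so the 2 deeper cKO libraries lay above all controls and the third far below. Ephb1, a receptor kinase of axon crossing (ENSMUSG00000032537, chromosome 9, 101799327 to 102231892), had 62.7, 32.1 and 7.67 CPM in control pools, compared with 189, 0 and 181 CPM in cKO pools. The log2 fold change of Ephb1 was 1.84 (SE 1.80, edgeR adjusted p = 0.9999), or 2.42 (SE 0.76, edgeR adjusted p = 0.767) without cKO replicate 2. Ephb6, a member without kinase activity, had 46, 0 and 0 counts in control pools, compared with 424, 0 and 187 counts in cKO pools. It had the smallest p of any guidance gene with all 6 libraries, a log2 fold change of 3.78 (SE 2.46, unadjusted p = 0.125, edgeR adjusted p = 0.9999). Ephb2 overlapped between the groups, with 82.2, 53.9 and 52.0 CPM against 72.3, 1.76 and 105 CPM. Within the family, Ephb2 made up 49.9%, 50.1% and 35.7% of EphB counts in the controls and 20.2% and 27.2% in cKO replicates 1 and 3, while Ephb1 made up 38.0%, 29.8% and 5.27% and then 52.7% and 46.9%. Ephb3 (5.71, 9.09 and 40.7 against 26.0, 0 and 49.3 CPM) and Ephb4 (10.8, 12.5 and 45.2 against 40.9, 0 and 34.5 CPM) overlapped between the groups, control replicate 3 being the high control in both.

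**Figure D4:**
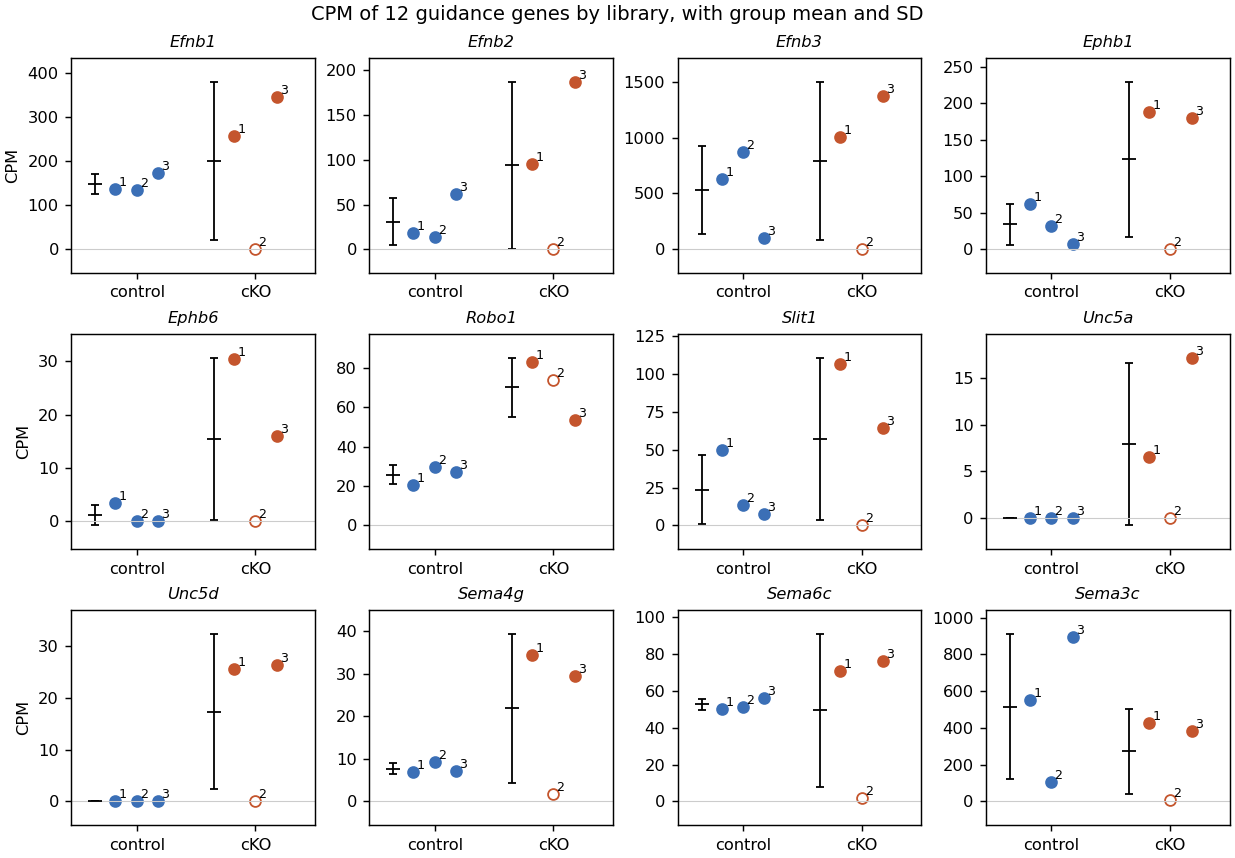
CPM of 12 guidance genes by library, each panel on its own linear axis, points numbered by replicate with cKO replicate 2 open; bars show the group mean and SD over 3 libraries. Robo1 is separated with all 6 libraries, while the other cKO means combine 2 libraries with a value at or near 0. All but Sema3c are among the 18 genes whose cKO replicates 1 and 3 lay above all controls, so the panels do not represent the whole set.

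A ephrins summed to 102.9, 57.2 and 29.3 CPM against 119.7, 0 and 103.5 CPM in cKO, cKO replicate 3 lying barely above the highest control, while EphA sums overlapped (410, 190 and 149 against 388, 0 and 262 CPM). Efna3 had 62.0, 31.3 and 15.8 CPM in control pools, compared with 80.7, 0 and 61.8 CPM in cKO pools, and Efna5, which repels axons in topographic maps, 31.9, 21.9 and 4.57 against 39.0, 0 and 41.6 CPM. Some low ligands were seen in controls alone: Efna1 had 0, 52 and 80 counts and Efna4 119, 0 and 40 counts, with 0 in all cKO libraries. Each was also at 0 in 1 control, against 40 or more counts in the others, so no fold bound is drawn. By edgeR without cKO replicate 2 the log2 fold change was -8.415 (SE 4.08) for Efna1 and -8.689 (SE 4.29) for Efna4. Both had an adjusted p of 0.767 in that edgeR fit. Of the receptors, Epha4, which binds ephrins of both classes, was variable, with 256, 25.5 and 19.4 CPM in control pools, compared with 72.5, 0 and 75.1 CPM in cKO pools, so 1 control set its group mean. Epha7 had 63.3, 40.4 and 45.9 against 155, 0 and 59.3 CPM, and Epha3 32.6, 76.4 and 35.8 against 87.2, 0 and 54.6 CPM. Epha5 was higher in both deeper cKO libraries, at 30.9 and 49.3 CPM against 19.5, 16.5 and 6.04 CPM. Epha2, the receptor whose promoter holds the full element, went the other way in the means, with 11.1, 12.2 and 35.2 CPM against 11.9, 0 and 6.2 CPM. The log2 fold change of Epha2 was -1.59 (SE 1.98, edgeR adjusted p = 0.9999), or -1.045 (SE 1.16) without cKO replicate 2, and its groups overlapped. Epha8 had 284, 152 and 47 counts against 289, 0 and 13, and Epha6 99, 87 and 1 against 125, 0 and 16. Epha10 had 2, 3 and 48 counts against 0, 0 and 120, and Epha1 had 62 counts in cKO replicate 3 and 0 elsewhere, with 44.0% of its last 500 exon bases shared with another annotated gene.

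Among semaphorins, the secreted class 3 was taken without Sema3d. Its sum was 621, 129 and 967 CPM in control pools, compared with 487, 7.04 and 437 CPM in cKO pools. Sema3c (ENSMUSG00000028780, chromosome 5, 17779279 to 17935266) was the main class 3 gene of those included. It had 550, 104.3 and 895 CPM in control pools, compared with 428, 7.04 and 384 CPM in cKO pools, which lay inside the control range apart from replicate 2. Its log2 fold change was -0.89 (SE 1.02, edgeR adjusted p = 0.9999), or -0.31 without cKO replicate 2. Sema3a, the classical axon repellent, had 42.5, 12.9 and 46.3 CPM against 30.9, 0 and 4.93 CPM, a log2 fold change of -1.42 (SE 1.77, edgeR adjusted p = 0.9999). Sema3f, which signals through Nrp2, had 150, 83 and 0 counts against 310, 0 and 193. Sema3b had 125, 71 and 274 counts against 83, 0 and 105, and Sema3e, the Plxnd1 ligand, 107, 2 and 72 against 0, 0 and 275.

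Classes 4 to 7 summed to 340, 232 and 270 CPM in control pools, compared with 454, 5.28 and 497 CPM in cKO pools, and both deeper cKO libraries lay above the controls. Sema6c and Sema4g had the tightest controls. Sema6c had 50.3, 51.3 and 56.2 CPM, against 70.7, 1.76 and 76.0 CPM in the cKO libraries, and Sema4g 6.89, 9.17 and 7.08 CPM against 34.4, 1.76 and 29.5 CPM. For Sema4g the log2 fold change without cKO replicate 2 was 2.06 (SE 0.91, edgeR adjusted p = 0.767). Sema4f (12.5, 28.2 and 48.4 against 57.7, 0 and 59.2 CPM), Sema4c (34.9, 8.15 and 35.3 against 52.3, 0 and 47.0 CPM) and Sema5a (14.2, 0.0784 and 7.15 against 17.3, 0 and 31.0 CPM) were likewise higher in both deeper cKO libraries. Sema6d, the most abundant of these classes, had 107, 71.2 and 44.9 CPM against 113, 1.76 and 105 CPM, so control replicate 1 reached the cKO values. Sema6a, a ligand of A plexins also known from oligodendrocytes, had 42.9, 28.4 and 9.58 against 32.6, 0 and 49.6 CPM, and Sema7a, the lipid-anchored member, 36.9, 3.45 and 8.77 against 31.3, 0 and 27.2 CPM. Sema4d, a ligand of B plexins, was low, with 22, 0 and 86 counts against 173, 0 and 0. Sema4a (0, 107 and 0 against 246, 0 and 90 counts), Sema4b (114, 7 and 262 against 0, 0 and 137), Sema5b (110, 193 and 319 against 52, 0 and 416) and Sema6b (227, 105 and 41 against 163, 0 and 213) overlapped between the groups.

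Semaphorin receptors mostly overlapped between the groups. Plexins summed to 145, 54.95 and 214 CPM in control pools, compared with 191, 216 and 230 CPM in cKO pools. In cKO replicate 2 the plexin sum was all Plxnb2, a receptor of class 4 semaphorins (chromosome 15, 89039752 to 89064991). Plxnb2 had 19.0, 6.74 and 64.5 CPM in control pools, compared with 41.1, 216 and 77.0 CPM in cKO pools. Its log2 fold change was 1.87 (SE 1.81, edgeR adjusted p = 0.9999) and 1.01 (SE 0.88, edgeR adjusted p = 1) without that library, where control replicate 3 lay between the cKO values. Plxnb1 had 37.9, 30.5 and 59.6 CPM against 44.8, 0 and 60.3 CPM. The A plexins, which transmit class 3 and class 6 signals, ranged from 0 to 27.6 CPM in the controls and from 4.03 to 38.8 CPM in the deeper cKO libraries. Plxna1 had 113, 69 and 216 counts against 482, 0 and 135, Plxna2 238, 1 and 106 against 474, 0 and 187, Plxna3 144, 119 and 374 against 56, 0 and 457, and Plxna4 136, 0 and 193 against 369, 0 and 94. Plxnc1, the Sema7a receptor, had 561, 36 and 57 counts against 80, 0 and 214, and Plxnd1 had 271 counts in control replicate 3 and 0 elsewhere. Nrp1 had 55.2, 19.8 and 8.99 CPM against 52.1, 0 and 82.0 CPM, and Nrp2 50.1, 13.2 and 100.1 against 105, 0 and 42.8 CPM. Each neuropilin overlapped between the groups, although their sum (105, 33.1 and 109 against 157, 0 and 125 CPM) was higher in both deeper cKO libraries.

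Robo1, a receptor for Slits (ENSMUSG00000022883, chromosome 16, 72105194 to 72842983) had 20.6, 29.6 and 27.1 CPM in control pools, compared with 82.8, 73.9 and 53.4 CPM in cKO pools, the last but 1 from 42 counts. That is 25.8 ± 4.67 against 70.0 ± 15.0 CPM (SD, n = 3). The cKO mean and SD include replicate 2, in which 57 of the 67 guidance genes were at 0. The log2 fold change was 1.42 (SE 1.76, edgeR adjusted p = 0.9999) and 1.42 (SE 0.51, edgeR adjusted p = 0.767) without cKO replicate 2, so it did not pass in either. Robo2 had 54.6, 31.0 and 0 CPM against 22.0, 0 and 41.8 CPM, and Robo3, known from axons crossing the midline, had 74, 216 and 0 counts against 1, 0 and 135. Both were at 0 in control replicate 3, where Robo1 was the only Robo gene counted. Robo sums were 80.6, 77.5 and 27.1 against 105, 73.9 and 107 CPM, with cKO replicate 2 inside the control range. Among the ligands, Slit2 was the main one, 63.6% to 86.9% of Slit counts in the deeper libraries, with 195, 87.6 and 37.2 CPM against 195, 1.76 and 157 CPM. Slit1 had 49.8, 13.2 and 7.67 CPM in control pools, compared with 107, 0 and 64.6 CPM in cKO pools, with both deeper cKO values above the controls. Its log2 fold change without cKO replicate 2 was 1.86 (SE 0.83, edgeR adjusted p = 0.767). Slit3 was low, with 0, 0 and 67 counts against 66, 0 and 34.

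Netrin ligands summed to 18.5, 0 and 62.3 CPM against 0, 0 and 8.41 CPM in cKO, and their receptors to 126, 51.7 and 31.8 against 134, 1.76 and 158 CPM. Ntn1, the diffusible cue that attracts Dcc-bearing axons, had 164, 0 and 155 counts in control pools, compared with 0, 0 and 4 counts in cKO pools. Ntn4, found in basement membranes, had 88, 0 and 690 counts against 0, 0 and 95. Control replicate 2 was thus at 0 for both ligands, like the lowest cKO libraries. The log2 fold change of Ntn4 was -2.71 (SE 2.18, edgeR adjusted p = 0.9999), and that of Ntn1 without cKO replicate 2 was -5.47 (SE 3.77, edgeR adjusted p = 0.920). Dcc, the attractive receptor, had 604, 228 and 1 counts against 21, 0 and 338. Unc5 receptors turn the response to repulsion. Unc5d (ENSMUSG00000063626, chromosome 8, 29136745 to 29709664) had 0 counts in every control and 356, 0 and 310 counts in the cKO libraries, and Unc5a (ENSMUSG00000025876, chromosome 13, 55097224 to 55153831) 0 in every control and 91, 0 and 202. No fold bound is drawn from these counts, because reads are not independent molecules and pooled counts leave out the spread between libraries. Swings from 0 occurred within a group for other guidance genes. Plxnd1 had 0, 0 and 271 counts in the controls, and Sema4d 173, 0 and 0 in the cKO libraries. Among all 55416 genes, 89 were at 0 in every control with at least 20 counts in cKO replicates 1 and 3, and 103 showed the reverse. With counts in cKO replicates 1 and 3 only, neither gene passed the filter of the fit with all 6 libraries. Without cKO replicate 2 both passed the filter through the cKO libraries alone, where they are high, so their p-values add no support to these levels. There edgeR gave both an adjusted p of 0.767, with a log2 fold change of 11.42 (SE 2.33) for Unc5d. DESeq2 gave an adjusted p of 2.06e-05 for Unc5d and 0.0189 for Unc5a. Across the alternatives the adjusted p ran from 2.06e-05 to 1 for Unc5d and from 0.0189 to 1 for Unc5a. Unc5c had 30.2, 33.9 and 2.28 CPM against 54.1, 0 and 39.07 CPM and Unc5b 52.0, 0 and 29.5 against 46.6, 1.76 and 47.1 CPM.

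Genes that carry guidance signals into the cell were followed through a list of 52 effectors and a list of 27 other ligands, receptors and their sheddases. With all 6 libraries, 0 of 51 tested effectors and 0 of 24 other guidance genes passed in either direction (edgeR, adjusted over all genes). Their median log2 fold changes were -0.01 and 0.35, and 1 of the 75, Rock1, had an unadjusted p under 0.05, higher in cKO, against 1.30% of all genes higher and 1.53% lower. The effectors of smallest p in the higher direction peaked in the shallow library. Rock1, a kinase gene, had 7.25, 5.41 and 17.0 CPM in control pools, compared with 12.4, 663 and 20.8 CPM in cKO pools. Ptk2, the focal adhesion kinase, had 58.5, 77.6 and 116 against 86.7, 816 and 151 CPM, and the kinase gene Cdk5 175, 190 and 115 against 218, 1163 and 117 CPM. In the other direction, the exchange factor gene Vav2 had 242, 269 and 622 counts against 115, 0 and 101, and Rras 160, 380 and 1563 against 303, 0 and 187. Chn2, which encodes a chimaerin that turns off Rac, had 128, 344 and 95 counts against 34, 1 and 52. Without cKO replicate 2 the counts were again 0 of 51 and 0 of 25 by edgeR, while DESeq2 called the effectors Dpysl2 (adjusted p = 0.0294, 0.0294 to 1 over the alternatives) and Gsk3b (0.0186, 0.0186 to 1) higher, against 0.824% of all genes. Dpysl2, which relays semaphorin signals to microtubules, had 1145, 947 and 987 CPM in control pools, compared with 1802, 14.1 and 1706 CPM in cKO pools. Gsk3b, a kinase that phosphorylates Dpysl2, had 128, 79.4 and 100.2 CPM against 369, 230.4 and 230.9 CPM, all cKO pools above all controls. With all 6 libraries it was the 1 effector so separated, and 2 effectors had all cKO values below the controls. Of the other guidance genes, 0 were higher and 2 lower in this sense, against 1.33% and 11.1% of all tested genes. On leaving out cKO replicate 2, 16 of 51 effectors and 9 of 25 other guidance genes had both cKO values above all controls. In the same libraries 3 and 2 had both below, against 13.0% and 12.6% of all genes.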

How the data were processed

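Transcript 3' ends were sequenced with a QuantSeq FWD kit, per the labels' protocols. The authors deposited unnormalized counts, made by featureCounts 2.0.0 with exons summed by gene on Ensembl release 104 of GRCm39, with neither a strand nor a multi-mapping option, per the file headers. The submitters' processing notes also list FastQC, STAR and DESeq2, and their versions and settings are not given in the sources used here. Without strand, reads of a gene and an antisense partner cannot be told apart; of the genes with at least 20 counts, Epha1, Unc5a and Ephb4 share part of their last 500 exon bases with another gene (44.0%, 6.80% and 6.60%).

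Gene identifiers were matched to symbols. The members, lists, tests and alternatives were chosen with earlier results of these data known. Genes kept by filterByExpr were scaled by TMM and tested with glmQLFit (robust) and glmQLFTest in edgeR 4.0.16 under R 4.3.3, cKO against control, two-sided, adjusted over all genes tested, and this test recovered known changes in simulated counts whose spread between replicates was set low, so power at the spread of these libraries was not tested. The standard error is the log2 fold change divided by the square root of F. CPM used all counts of a library. Each guidance gene with at least 20 counts in a library is named with its values. Fold changes are given for the 4 genes of smallest p in each direction with all libraries and without cKO replicate 2, and for Efnb3, Robo1, Slit1 and Sema4g, chosen after their values were seen. Of the pathway lists, the 3 genes of smallest p in each direction are named, and Dpysl2 and Gsk3b were added. The alternatives comprised scaling by RLE or by the upper quartile, the tool DESeq2 1.42.0, no filter or one of 5 CPM in 3 libraries, a replicate block and leaving out each library. RLE scaling and DESeq2 without cKO replicate 2 were added after the data were seen. Figures used matplotlib 3.10.9.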

Additional observations from a re-analysis of the deposited data

How the results depend on the processing

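The 0 guidance genes and 0 pathway genes past the threshold stayed at 0 under the other scalings, filters, tool, block and left-out libraries. DESeq2 without cKO replicate 2, added after the data were seen, called 2 of each, all higher; the guidance genes were Unc5a and Unc5d, which passed the filter through the cKO libraries alone. Over all genes, the 2 calls (1 higher, 1 lower) became 16 with RLE scaling (14 and 2), 0 with upper-quartile scaling, 59 with DESeq2 (7 and 52), 23 without a filter (22 and 1), 1 with the replicate block, 1 to 7 on leaving out a library, 1 with RLE scaling without cKO replicate 2 and 298 with DESeq2 without it. Upper-quartile scaling rests on a quartile of 1 count in cKO replicate 2. The median of all genes was -0.44, -0.28 with RLE and -0.01 with upper-quartile scaling, and that of the guidance genes 0.32, 0.44 and 0.61. Guidance genes whose groups did not overlap numbered 1, then 3 with upper-quartile scaling (all higher) and 2 to 18 on leaving out a library. Lower ones were 2 of 3 without control replicate 1 and 5 of 6 without control replicate 2. They were 3 of 5 without cKO replicate 1 and 4 of 5 without cKO replicate 3. None of 18 was lower without cKO replicate 2, and 0 of 2 without control replicate 3. Of all tested genes, 1.33% were higher in this sense and 11.1% lower with all 6 libraries. Without cKO replicate 2 these shares were 13.0% and 12.6%. For the other settings no share over all genes was taken, so those counts are not a result about guidance genes. The guidance median was -0.26 without cKO replicate 1 and -0.07 without cKO replicate 3, that of all genes -0.82 and -0.90. Of 13 genes whose fold change was recomputed, Efnb1 turned, to -0.56 with the replicate block and over -0.14 to 1.04 on leaving out a library. The cause was not tested. Deviations of same-numbered libraries correlated at 0.0806, 0.0374 and -0.0124, and control replicate 3 did not correlate best with its own number, so the numbers were not taken as pairs; with the replicate block the guidance median was -0.53 and that of all genes -1.23. By counting error alone a 0 in cKO replicate 2 allows up to 5.28 CPM. Efnb1 was at 0 there, although its mean level in the deeper libraries corresponds to 119 counts. A 0 in that library is therefore not read as a limit on a level.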
